A study of Mus musculus with 6 samples.

Results

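The B cell receptor complex and its first signalling proteins were followed in mouse blood through 9 genes, Cd79a, Cd79b, Lyn, Blk, Syk, Btk, Blnk, Bank1 and Plcg2, chosen by name. All probes assigned to these genes were taken, which gave 11 of the 41174 probes on the array and 9 of its 16535 named genes. The B cell receptor is a membrane immunoglobulin held together with a heterodimer of Cd79a and Cd79b, whose cytoplasmic tails carry the activation motifs that are phosphorylated when antigen binds. Src family kinases such as Lyn and Blk phosphorylate these motifs, Syk docks on them, and the adaptor Blnk then brings Btk and the phospholipase Plcg2 together so that calcium is released. In blood the receptor marks circulating B cells, whereas Lyn, Syk, Btk and Plcg2 are also used by myeloid cells and platelets, and Cd79a, Cd79b, Blnk, Blk and Bank1 are mostly restricted to the B lineage.

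The FR group was male C57BL/6J mice, an inbred strain, kept on 50% food restriction for 2 weeks, and the control group was male C57BL/6J mice on a normal diet. Both groups had 8 animals and the labels give their age as 9 weeks. Whole blood RNA was pooled within a diet, so animals cannot be seen singly. Animals 1 to 4 of a diet made up pool 2, animals 5 to 8 made up pool 3, and all 8 made up pool 1. Each FR pool was hybridised against the control pool of the same number on 2 arrays with the dyes exchanged, which made 6 arrays. Pools 2 and 3, from different animals, are the 2 replicates of every mean, SD and test, while pool 1 repeats the same animals on another slide.

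Each ratio is the log2 of FR over control on an array, set so that the bulk of spots lies at 0, and each signal is a normalized log2 intensity. Between 20.4% and 55.6% of spots were well above background in the FR channel and between 37.2% and 62.1% in the control channel, of 43379 spots per array, and 0 were saturated. The lowest FR share belonged to the pool 3 array with FR in Cy3. The ratios of the 6 arrays correlated across probes at 0.706 to 0.939. Of the 41174 probes, 13258 were bright enough to be tested, with FR or with control clear of background on each of the 4 arrays of pools 2 and 3. Among these, 29.5% changed at an adjusted p under 0.05 (limma, Benjamini-Hochberg over the 13258 probes), with 25.5% lower and 4.01% higher in FR. Among the 7906 named genes tested, each by its brightest probe, 31.7% changed, 28.4% being lower and 3.29% higher. The number of pools limits the precision.

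Lower levels in FR blood were found for Cd79b, Blnk, Plcg2, Bank1, Lyn, Syk and Btk. Counted over the 8 genes that could be tested, 7 were lower, 0 were higher and 1, Cd79a, did not pass, against 28.4% lower among all named genes tested. Blk was too dim to be tested. At the level of probes, 9 of 10 were lower, against 25.5% of all tested probes. A ratio at least 2-fold lower was reached by 5 genes, Cd79b, Blnk, Plcg2, Bank1 and Lyn, against 6.88% of named genes and 5.79% of tested probes. The median log2 ratio of the 8 genes was -1.55, beside -0.04 over all named genes tested, and was -1.32, -1.68 and -1.41 in pools 1, 2 and 3. Fewer B cells in the blood and less of these transcripts per cell cannot be told apart in bulk RNA. A count of 7 lower genes, against 21.9% of all tested probes, was also obtained without the pool 3 array with FR in Cy3, an alternative chosen after seeing the data. When both FR and control had to be above background on all 4 arrays, 4 genes remained in the test, and the 3 lower ones were Cd79b, Lyn and Plcg2, against 19.4% lower of the 7872 probes tested in that way. Blnk, Bank1, Syk and Btk entered the test through the control channel.

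**Figure D1:**
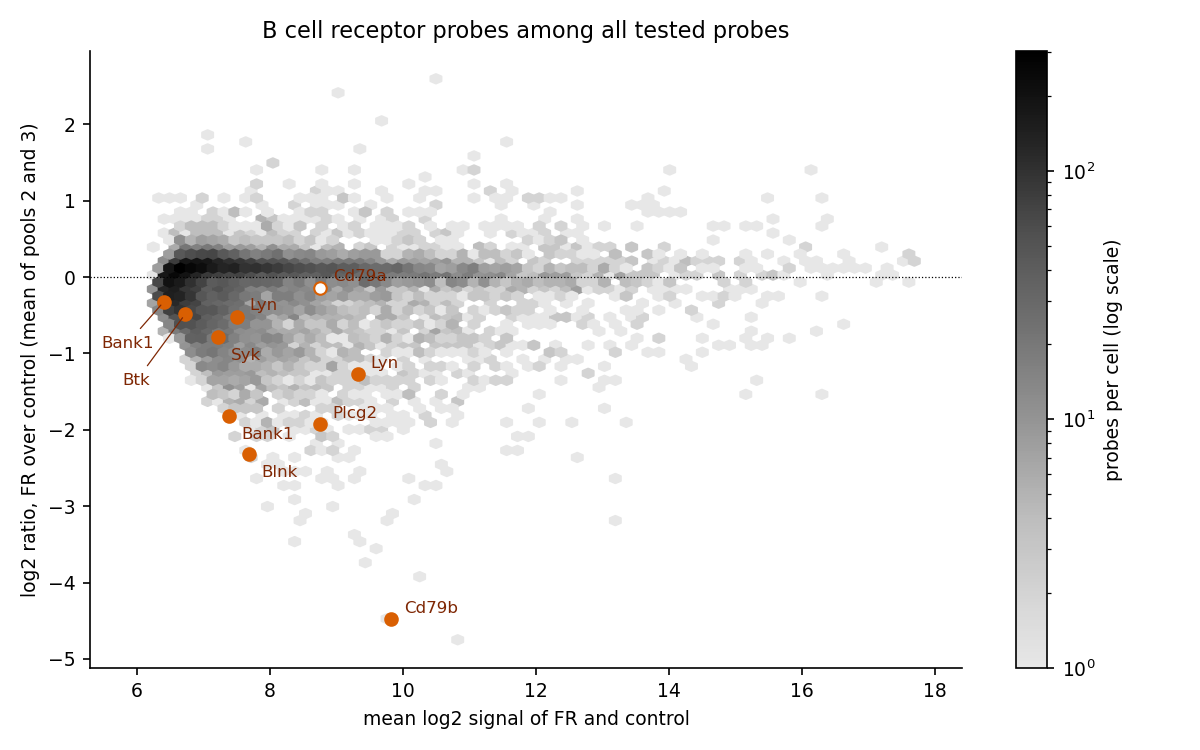
Log2 ratio of FR over control (mean of pools 2 and 3, vertical axis) against the mean log2 signal of FR and control (horizontal axis) for the 13258 tested probes, shaded by the number of probes per cell on a log scale. Orange points are the 10 tested probes of the B cell receptor genes, filled where the probe passed the test and open for Cd79a. Cd79b, at -4.48, lies far below the dense band of probes near 0, Blnk, Plcg2 and the brighter Bank1 probe lie between -2.32 and -1.82, and Cd79a lies within the band.

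Promoter sequences were matched in the RefSeq table of assembly GRCm38.p6 for 6 of the 9 genes, Cd79a, Blnk, Btk, Syk, Bank1 and Plcg2. The promoters of 4 genes are shown, Cd79a because it alone among the tested genes did not pass, and Blnk, Bank1 and Plcg2 because they had the largest decreases among the matched genes. Each line gives the 250 bases before the annotated transcription start, read 5′ to 3′ on the strand of the gene. Capitals mark matches, on either strand, to 6 motifs of factors that act in the B lineage: the octamer ATGCAAAT, the EBF palindrome, the EBF core CAAGGGAA, the ETS motif GAGGAA of the PU.1 type, the E-box CAGGTG of the E2A type and the Runx motif TGTGGT. No overlap occurs among the matches printed.
Cd79a promoter, chr7:24897247-24897496 (plus strand): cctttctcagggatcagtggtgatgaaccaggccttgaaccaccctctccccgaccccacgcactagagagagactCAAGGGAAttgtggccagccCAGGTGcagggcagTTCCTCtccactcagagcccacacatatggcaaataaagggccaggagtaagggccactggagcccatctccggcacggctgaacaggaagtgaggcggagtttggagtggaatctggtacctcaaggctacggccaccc
Blnk promoter, chr19:40994222-40994471 (minus strand): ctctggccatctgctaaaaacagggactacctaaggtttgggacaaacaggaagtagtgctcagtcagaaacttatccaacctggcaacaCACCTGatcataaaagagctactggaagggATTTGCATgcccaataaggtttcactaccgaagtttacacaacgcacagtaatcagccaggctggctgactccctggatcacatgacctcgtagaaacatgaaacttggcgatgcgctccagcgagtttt
Bank1 promoter, chr3:136326067-136326316 (minus strand): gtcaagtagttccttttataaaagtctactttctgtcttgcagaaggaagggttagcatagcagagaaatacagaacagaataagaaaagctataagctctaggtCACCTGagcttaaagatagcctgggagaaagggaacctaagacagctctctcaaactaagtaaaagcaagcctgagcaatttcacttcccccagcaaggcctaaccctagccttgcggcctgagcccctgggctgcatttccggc
Plcg2 promoter, chr8:117498025-117498274 (plus strand): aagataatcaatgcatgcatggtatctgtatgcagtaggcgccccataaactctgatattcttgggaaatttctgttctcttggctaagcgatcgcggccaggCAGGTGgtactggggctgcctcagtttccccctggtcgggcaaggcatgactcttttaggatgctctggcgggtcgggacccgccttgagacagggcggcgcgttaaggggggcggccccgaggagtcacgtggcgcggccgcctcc

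The E-box of the E2A type was found in all 4 of these windows, from -154 to -149 in Cd79a, from -160 to -155 in Blnk, from -145 to -140 in Bank1 and from -147 to -142 in Plcg2, counted back from the start. It also matched in the windows of Syk start sites 1 and 2, from -200 to -195 and from -144 to -139, and not in the Btk window. The E-box occurs in 17.2% of all 32851 promoter windows of the same length. The octamer occurred in Blnk alone among the 7 windows of the 6 genes, from -130 to -123 on the other strand, and it occurs in 1.6% of all windows. In Cd79a the EBF core lay from -174 to -167 and the ETS motif from -140 to -135, and they occur in 1.26% and 23.2% of all windows. The ETS motif also matched at Syk start site 2, from -9 to -4. The EBF core is known from the Cd79a promoter itself, so that match is no finding. The palindrome and the Runx motif, in 0.78% and 14.1% of all windows, matched in 0 of the 7. These matches describe letters in the reference sequence and say nothing of binding in these animals.

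The receptor's own chains gave very different ratios. Cd79b (probe A_51_P342652, chromosome 11), which forms the signalling heterodimer with Cd79a, had median spot intensities of 276.5, 242 and 204 in FR pools 1, 2 and 3 labelled with Cy5, and 164, 209 and 145.5 in the same pools labelled with Cy3. The control pools on these arrays had 4036.5, 4545 and 3165 in Cy3 and 5994, 7355 and 5399.5 in Cy5. After normalization the log2 signal was 7.12, 7.98 and 7.76 in FR pools 1, 2 and 3, against 11.60, 12.65 and 12.05 in the control pools. Every FR pool lay below every control pool by several log2 units. The log2 ratio was -4.48, -4.67 and -4.28 in pools 1, 2 and 3, which gave -4.48 ± 0.27 (SD, n = 2 pools), or 22.2-fold lower in FR (limma adjusted p = 3.01e-179). Its 6 arrays ran between -4.83 and -4.01, and FR stayed well above background on all of them. With Agilent's processed signals in place of the normexp-corrected ones the difference was 34.5-fold.

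Cd79a (probe A_52_P651316, chromosome 7), the other chain of the heterodimer, was measured by a single probe that was well above background for FR and control on all 6 arrays. Its log2 signal was 7.89, 8.74 and 9.23 in FR pools 1, 2 and 3, against 8.20, 8.97 and 9.28 in the control pools. The groups overlapped, and signal differed more between pools than between diets. The log2 ratio was -0.30, -0.23 and -0.05 in pools 1, 2 and 3, with a mean of -0.14 ± 0.13 (SD, n = 2 pools) that did not pass (limma adjusted p = 0.566). With pool 1 in the place of pool 3 it passed, at -0.27 (adjusted p = 0.00876), although those pools share animals. The Cd79b ratio minus the Cd79a ratio lay between -4.56 and -3.90 on the 6 arrays. It was -4.18, -4.44 and -4.24 in pools 1, 2 and 3, or -4.34 ± 0.14 (SD, n = 2 pools), larger than its spread between pools. The probes of the 2 chains therefore changed unequally.

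**Figure D2:**
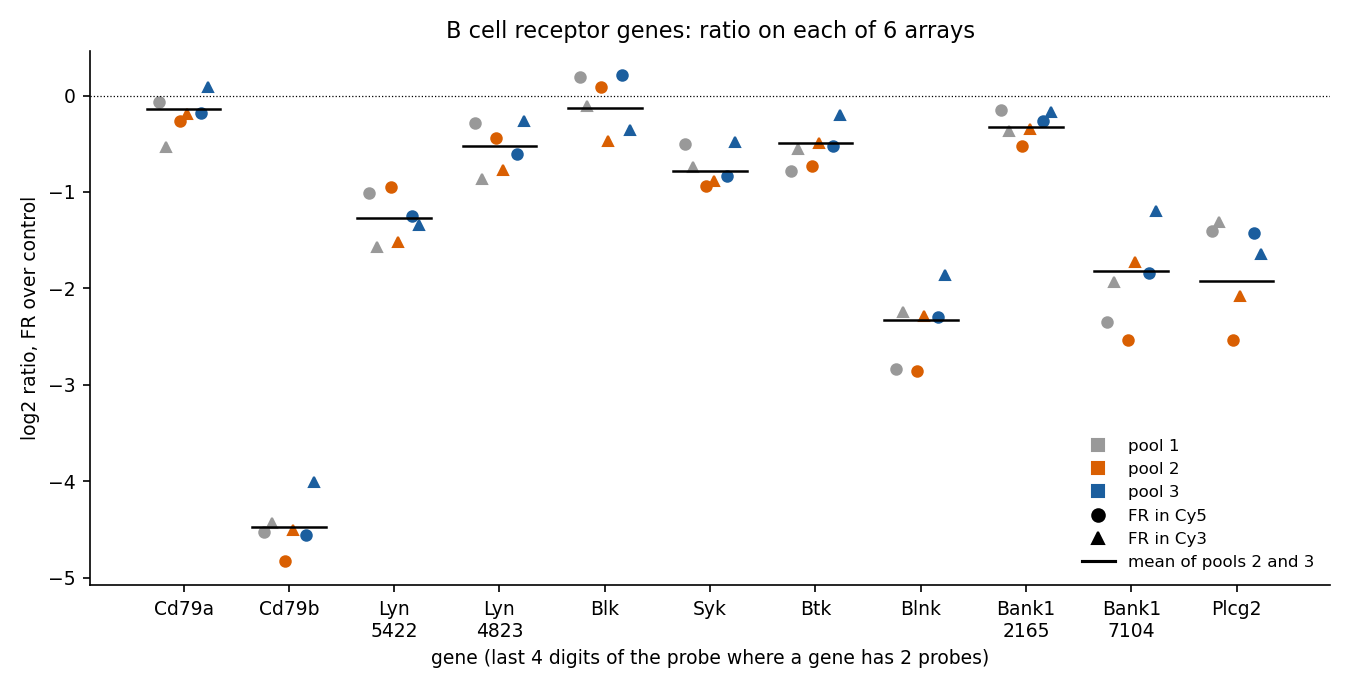
Log2 ratio of FR over control (vertical axis) for the 11 probes of the 9 genes (horizontal axis), on each of the 6 arrays. Colours give the pool, circles arrays with FR in Cy5, triangles arrays with FR in Cy3, and bars the mean of pools 2 and 3. Cd79b lies between -4.83 and -4.01 on all arrays, Cd79a is below 0 on 5 of the 6 arrays, Blk lies on both sides of 0, and the remaining 8 probes are below 0 on all arrays.

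Among the Src family kinases, Lyn, the kinase that starts phosphorylation at the receptor and also activates its inhibitory pathways, was lower by both of its probes. The brighter probe (A_51_P345422, chromosome 4) had a log2 signal of 8.64, 9.21 and 8.76 in FR pools 1, 2 and 3, against 9.93, 10.45 and 10.06 in the control pools. All FR values lay below all control values. Its log2 ratio was -1.29, -1.24 and -1.30 in pools 1, 2 and 3, with a mean of -1.27 ± 0.04 (SD, n = 2 pools), or 2.41-fold lower in FR (limma adjusted p = 3.25e-15). Pools agreed more closely than dyes did: the ratios were -1.01, -0.95 and -1.25 with FR in Cy5 and -1.57, -1.52 and -1.34 with FR in Cy3, for pools 1, 2 and 3. The dimmer probe (A_52_P34823) had log2 signals of 7.33, 7.50 and 7.49 in FR pools, against 7.91, 8.10 and 7.92 in control pools, again without overlap. It gave a ratio of -0.52 ± 0.12 (SD, n = 2 pools; limma adjusted p = 0.00482). The brighter probe was further below 0 than the dimmer one on all 6 arrays, with a difference of -0.71, -0.63 and -0.86 in pools 1, 2 and 3, so the size of the Lyn change depends on the probe. The call of the dimmer probe was lost with the prior taken from 3 pools (adjusted p = 0.0592) and without the replicate block (adjusted p = 0.218).

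Blk, a Src family kinase largely restricted to B cells, could not be measured. Its single probe (A_52_P15405, chromosome 14) was well above background in 0 of the 4 FR channels and 2 of the 4 control channels of pools 2 and 3, so it was not tested. The log2 signal was 6.65, 6.13 and 6.21 in FR pools 1, 2 and 3, against 6.60, 6.32 and 6.29 in the control pools. These values overlapped and lay near the low end of the scale, and the ratio followed the dye, at 0.19, 0.09 and 0.21 with FR in Cy5 and -0.10, -0.47 and -0.36 with FR in Cy3.

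Syk, the kinase that docks on phosphorylated Cd79 tails, was moderately lower. Its probe (A_51_P444934, chromosome 13) had a log2 signal of 7.31, 7.13 and 6.95 in FR pools 1, 2 and 3, against 7.93, 8.05 and 7.61 in the control pools. FR and control pools did not overlap, although the gap between them was small. The log2 ratio was -0.62, -0.92 and -0.66 in pools 1, 2 and 3, with a mean of -0.79 ± 0.18 (SD, n = 2 pools), or 1.72-fold lower in FR (limma adjusted p = 3.21e-06). The difference was 2.61-fold with processed signals, and the call was lost without the replicate block (adjusted p = 0.0651). FR was above background on 3 of the 4 arrays of pools 2 and 3.

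Btk, the Tec family kinase whose loss blocks B cell maturation, had the smallest change of the genes that passed with normexp at an offset of 50, but not with processed signals. The array carries its probe (A_51_P145883, chromosome X) in 10 spots, which makes it the only member with a spread within an array. Between 0 and 3 spots per array were marked as outliers and left out, and the SD of the remaining ratios ran from 0.0514 to 0.183. The log2 signal was 6.49, 6.65 and 6.60 in FR pools 1, 2 and 3, against 7.16, 7.27 and 6.96 in the control pools, without overlap. The log2 ratio was -0.67, -0.61 and -0.37 in pools 1, 2 and 3, with a mean of -0.49 ± 0.17 (SD, n = 2 pools), or 1.40-fold lower in FR (limma adjusted p = 0.000735). The difference was 2.96-fold with processed signals. The call was lost without the replicate block (adjusted p = 0.0904) and on the arrays with FR in Cy3 alone (adjusted p = 0.108). FR was above background on 1 of 4 arrays, so the value rests on dim FR spots.

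Both adaptors were strongly lower. Blnk, the scaffold that Syk phosphorylates (probe A_51_P279841, chromosome 19), had a log2 signal of 6.23, 6.98 and 6.56 in FR pools 1, 2 and 3, against 8.76, 9.55 and 8.64 in the control pools. The FR values were close to the low end of the scale and the control values were far above it. The log2 ratio was -2.54, -2.57 and -2.08 in pools 1, 2 and 3, with a mean of -2.32 ± 0.35 (SD, n = 2 pools), or 5.00-fold lower in FR (limma adjusted p = 5.81e-46). With processed signals the difference was 17.8-fold, and FR was above background on 2 of 4 arrays.

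Bank1, a B cell scaffold that in human cells binds Lyn and the calcium channels of the endoplasmic reticulum, was lower by both probes, but by very different amounts. The brighter probe (A_52_P277104, chromosome 3) had a log2 signal of 6.07, 6.83 and 6.59 in FR pools 1, 2 and 3, against 8.21, 8.95 and 8.11 in the control pools, with no overlap. Its log2 ratio was -2.14, -2.13 and -1.52 in pools 1, 2 and 3, with a mean of -1.82 ± 0.43 (SD, n = 2 pools), or 3.54-fold lower in FR (limma adjusted p = 7.01e-29). With processed signals it was 15.6-fold lower, and FR was above background on 1 of 4 arrays. The dimmer probe (A_51_P492165) had log2 signals of 6.18, 6.37 and 6.29 in FR pools, against 6.44, 6.81 and 6.51 in control pools. FR was above background on 0 of the 4 arrays there, so its ratio of -0.33 ± 0.16 (SD, n = 2 pools; limma adjusted p = 0.00642) is a bound, at least 1.22-fold lower in FR. With processed signals that probe read 3.30-fold. Its call was lost under 6 alternatives, at adjusted p-values between 0.074 and 0.152. The brighter probe minus the dimmer one was -1.88, -1.69 and -1.31 in pools 1, 2 and 3.

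Plcg2, the phospholipase that makes the calcium-releasing messenger, was lower and well measured in both diets. Its probe (A_51_P279163, chromosome 8) had a log2 signal of 8.57, 8.09 and 8.04 in FR pools 1, 2 and 3, against 9.92, 10.40 and 9.58 in the control pools. Every FR pool was below every control pool. The log2 ratio was -1.35, -2.31 and -1.54 in pools 1, 2 and 3, with a mean of -1.92 ± 0.55 (SD, n = 2 pools), or 3.79-fold lower in FR (limma adjusted p = 1.01e-33). Its spread between pools exceeded that of the other member probes, and pool 2 was furthest below 0 with both dyes, at -2.54 and -2.08.

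**Figure D3:**
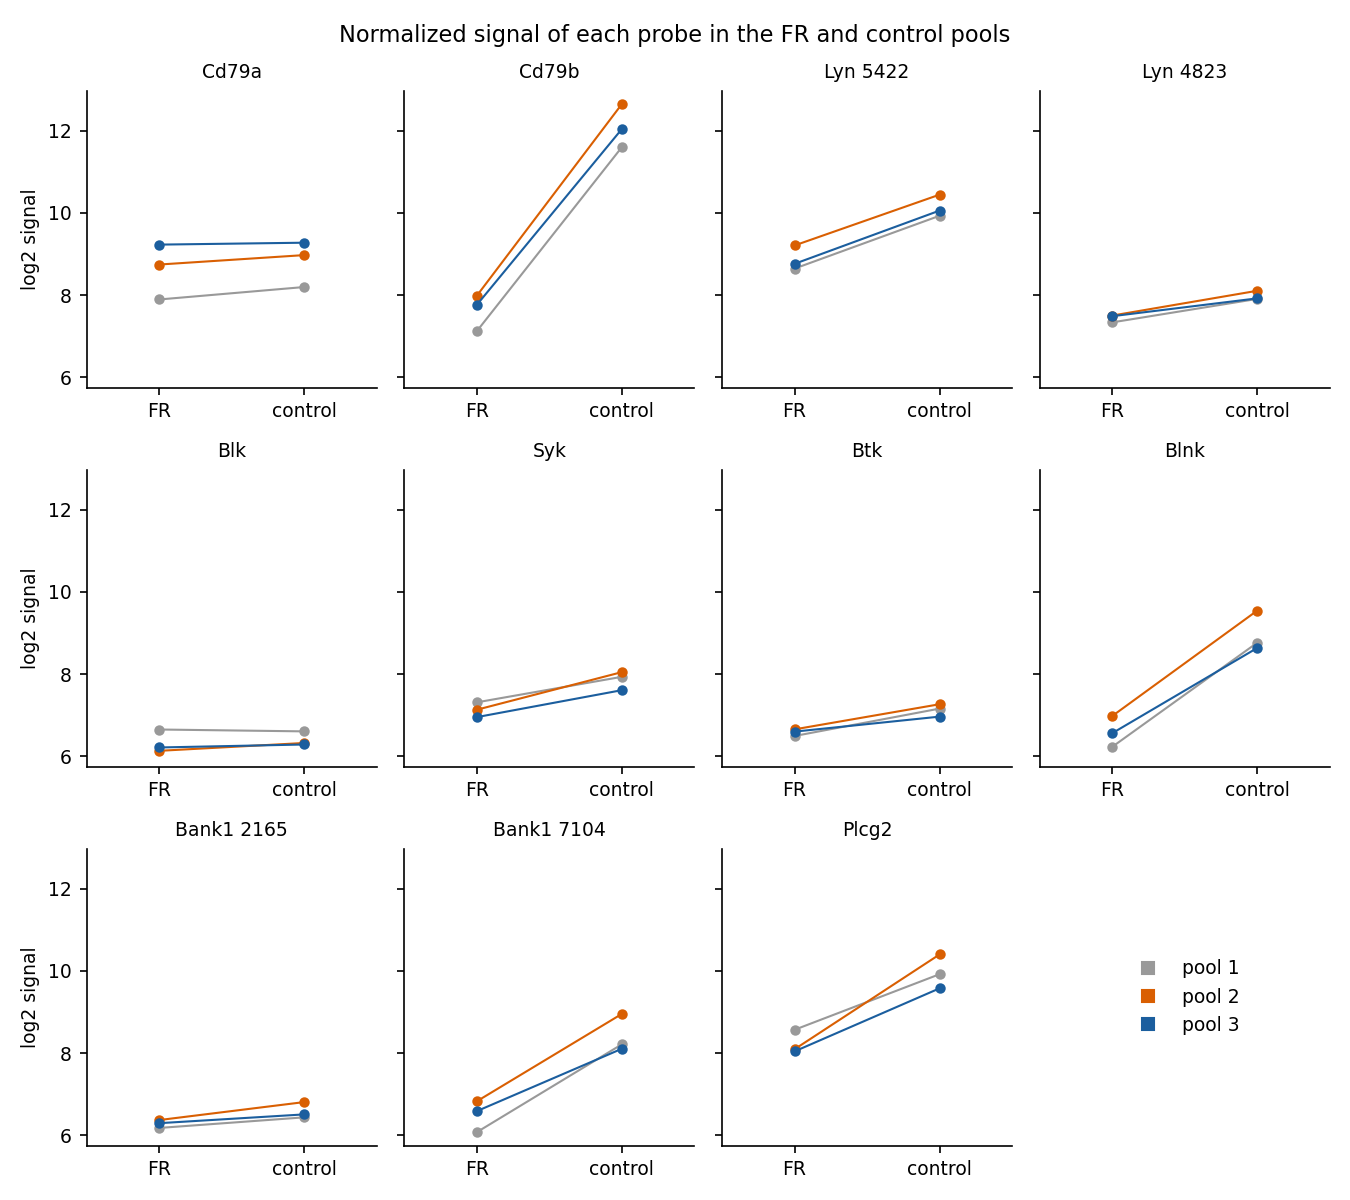
Normalized log2 signal (vertical axis) of each of the 11 probes in the FR and control pools (horizontal axis), with lines joining the FR and control pool of the same number. All lines of Cd79b, Blnk, Plcg2, Lyn, Syk, Btk and both Bank1 probes climb toward control, and those of Cd79a and Blk are nearly flat. Levels of different probes cannot be set against each other.

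Ordered by the ratio, Cd79b stood apart, with pool values of -4.67 and -4.28. Blnk, Plcg2 and the brighter Bank1 probe followed at -2.32, -1.92 and -1.82, with overlapping values in pools 2 and 3. Taken within arrays, Blnk minus the brighter Bank1 probe was -0.40, -0.44 and -0.56 in pools 1, 2 and 3 and below 0 on all 6 arrays, a difference of -0.50 ± 0.08 (SD, n = 2 pools) that exceeded its spread. Plcg2 minus Bank1 was 0.79, -0.18 and -0.02 in the same pools and so had no steady sign. With processed signals this order did not hold: Blnk, at -4.12 and -4.18 in pools 2 and 3, and Bank1, at -3.85 and -4.08, lay well below Plcg2, at -2.67 and -2.21. In pool 1 Blnk, at -3.83, was above the brighter Bank1 probe, at -4.27, so the order of these genes depends on how background was removed. Lyn came next at -1.27 by its brighter probe, above all the pool values of those 3 genes. Syk at -0.79 and Btk at -0.49 were separate in pools 2 and 3 but overlapped once pool 1, with -0.62 for Syk and -0.67 for Btk, was included. Cd79a came last. With processed signals Btk, at -1.57, was no longer above Syk and Lyn, at -1.39 and -1.42. The fit of pools 2 and 3 gave infinite prior degrees of freedom, and so a common variance for probes of like signal. Under 5.53 prior degrees of freedom, estimated from all 3 pools, the same 7 genes were lower, against 16.3% of all tested probes. The limma adjusted p-values were 0.000417 for Cd79b, 0.0016 for Blnk, 0.00299 for Bank1 and 0.00334 for Plcg2. For Lyn, Syk and Btk they were 0.00358, 0.0166 and 0.0432. Those values carry the weaker assumption about the spread, but their prior degrees of freedom come from pools that share animals.

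The named genes whose ratios over the 6 arrays were nearest to those of Cd79b, by root-mean-square difference in log2 units, were Fcmr at 0.67, Cd74 at 0.96, Ms4a1 at 0.98, Ctss at 1.03 and Ly6d at 1.23. Cd79b had the lowest ratio of all named genes tested, so any neighbour has a smaller decrease by construction. Fcmr, the nearest, had -3.96, -3.99 and -3.55 in pools 1, 2 and 3. Lyn, by its brighter probe, had closer neighbours: Arpc2 at 0.11, Rtn3 at 0.13, Mapk6 at 0.17, Mbp at 0.18 and Ell2 at 0.18. The arrays share RNA pools and dyes, so these distances describe 6 arrays and not 6 independent samples.

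Genes around the receptor were read in 5 further lists and a list of immunoglobulin chains. Of 84 genes listed, 75 were named on the array and 62 could be tested. Among those, 37 were lower, 0 were higher and 25 failed the test, against 28.4% lower among all named genes tested. The median of the 62 was -0.52 (log2 ratio) beside -0.04 over all named genes. The 5 immunoglobulin chain genes were not analysed here. Each list tested holds genes that met the filter through the control channel alone, and such entry favours lower calls. When both diets had to be above background, 13 of 28 were lower, against 19.4% of all probes tested in that way. Without the replicate block 21 of 62 were lower, against 10.2% of all tested probes.

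The list of coreceptor and activating adaptor genes held 7 lower genes of 12 tested (58.3%, median -0.52), against 28.4% lower among all named genes. FR met the filter for 7 of the 12, and for Pik3cd FR was above background on 2 of 4 arrays. Grb2, an adaptor to the Ras pathway, was at -1.27 ± 0.25, and Pik3cd, the leukocyte PI3 kinase subunit, at -1.09 ± 0.54. Sh3kbp1, an adaptor of endocytosis, was at -1.07 ± 0.35 by its brightest probe, while another of its 3 probes read -0.03. Fyb, an adaptor of T cells and platelets, was lower by both probes, at -1.01 ± 0.15 by the brighter and -0.43 by the other. Cd81, a tetraspanin of the coreceptor complex, was at -1.04 ± 0.04 (SD, n = 2 pools). Cr2, the complement receptor of that complex, had -0.17 by its brighter probe, which did not pass, and -0.46 by its dimmer probe, which was lower. Vav1, an exchange factor recruited to the receptor, had -0.27, which did not pass, and -0.38, which was lower. Vav2 and Pik3r1, a regulatory PI3 kinase subunit, had ratios of 0.05 each and did not pass.

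The calcium and NFAT branch downstream of Plcg2 held 9 lower genes of 12 tested (75%, median -0.67), against 28.4% lower among all named genes. FR met the filter for 6 of the 12, and for Itpr3 FR was above background on 2 of 4 arrays. Itpr2, a receptor for the messenger that Plcg2 makes, was at -1.75 ± 0.07 by its brightest probe, at -0.91 by the next and at 0.07, which did not pass, by the last. Its relative Itpr3 was at -1.28 ± 0.70. Ppp3ca, the catalytic subunit of calcineurin, was at -1.27 ± 0.24 and the calcineurin target Nfatc3 at -0.94 ± 0.49 (SD, n = 2 pools). Itpr1 was also lower, at -0.60, but FR was above background on 0 of 4 arrays. The 3 genes that did not pass were the plasma membrane channel Orai1 at 0.03, Nfatc2 at 0.09 and Ppp3cb at -0.08.

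The PKC, NF-kB and Ras branch held 9 lower genes of 16 tested (56.25%, median -0.52), against 28.4% lower among all named genes. FR met the filter for 6 of the 16, and for Rasgrp1 FR was above background on 1 of 4 arrays. Bcl10, an adaptor that joins PKC to NF-kB in lymphocytes, was at -0.78 ± 0.10. Prkcd and Prkcb, protein kinases C that respond to the lipid product of Plcg2, were at -1.12 ± 0.31 and -1.12 ± 0.43 by their brightest probes, and at -0.24 and -0.16, which did not pass, by their other probes. Rasgrp1, a Ras exchange factor, was at -0.69 ± 0.29 (SD, n = 2 pools). Malt1, a protease that acts with Bcl10, was lower at -0.57, with FR above background on 0 of 4 arrays. Akt1 was lower by its brighter probe, at -0.53, and higher by the other, at 0.31, so its direction depends on the probe.

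Inhibitory receptors and phosphatases held 7 lower genes of 13 tested (53.8%, median -0.32), against 28.4% lower among all named genes. FR met the filter for 7 of the 13, and for Cd22 and Csk FR was above background on 2 of 4 arrays. Pirb, an inhibitory receptor of B cells and myeloid cells, was at -1.40 ± 0.93, with pool 2 at -2.06 and pool 3 at -0.74. Inpp5d, the lipid phosphatase SHIP1, was at -1.26 ± 0.19. Cd22, a sialic acid-binding receptor that dampens the B cell receptor, was at -1.01 ± 0.37, the adaptor Dok3 at -0.96 ± 0.44 and the Src-inhibiting kinase Csk at -0.64 ± 0.33 (SD, n = 2 pools). Ptpn22 at -0.60 and the B cell protein Cd72 at -0.32 were also lower, with FR above background on 0 of 4 arrays. Ptpn6, the phosphatase SHP-1, had -0.27 by its brighter probe, which did not pass, and -2.03 by its dimmer probe, which was lower. Fcgr2b, the inhibitory Fc receptor, had -0.05, which did not pass, and -0.43, which was lower.

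Paralogues of the receptor's kinases and adaptors that other leukocytes use held 5 lower genes of 9 tested (55.6%, median -0.43), against 28.4% lower among all named genes. FR met the filter for 2 of the 9, and for Lck FR was above background on 2 of 4 arrays. Tyrobp and Fcer1g, adaptors with activation motifs in myeloid and NK cells, were at -2.002 ± 0.684 and -1.91 ± 0.27. Lck, the Src family kinase of T cells, was at -1.39 ± 0.33, and the myeloid kinase Fgr was at -0.43 ± 0.37 (SD, n = 2 pools). Lcp2, the counterpart of Blnk in T cells and platelets, had -0.29, the kinases Txk and Zap70 had -0.24 and -0.14, and Fyn had 0.03, none of which passed.

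**Figure D4:**
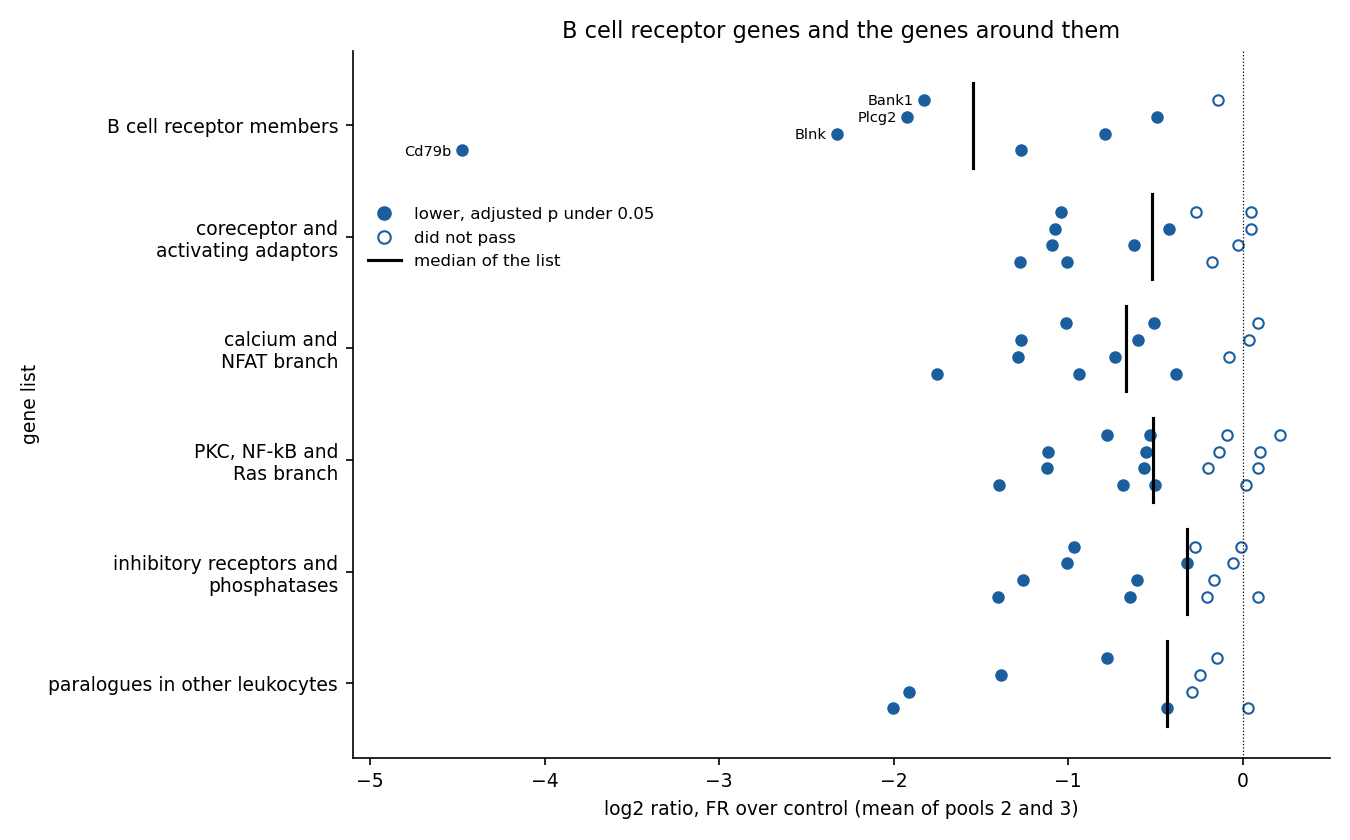
Log2 ratio of FR over control (mean of pools 2 and 3, horizontal axis) for the tested genes of each list (rows), 1 point per gene by its brightest probe, filled where lower at an adjusted p under 0.05 and open where the test was not passed. Vertical bars are list medians, -1.55 for the B cell receptor genes and between -0.67 and -0.32 for the others, and the 4 lowest receptor genes are named. Points within a row are staggered only for legibility.

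Markers of the blood cell types moved beside these genes. Of 15 tested B cell markers 13 were lower (median -1.59), and their summed signal was 3080, 3140 and 3150 in FR pools 1, 2 and 3, against 10900, 17400 and 11900 in control pools. Among them Ms4a1 (CD20) was at -3.48 and Pou2af1, a coactivator of octamer-binding factors, at -2.47, whereas Cd37 at -0.27 did not pass. The filter was met in FR by 7 of the 15 tested markers, and the rest met it through the control channel alone. Such entry favours lower calls, which made up 28.4% among all named genes tested. Pax5 and Ebf1, transcription factors that define the B lineage, were too dim to be tested. The summed signal of the 8 tested receptor genes was 1550, 2030 and 1930 in FR pools, against 6470, 11400 and 7670 in control pools. Bright probes weigh most in such sums. Cd79b had the largest control signal of the 8, at a log2 of 11.60, 12.65 and 12.05 in pools 1, 2 and 3. Cd22 and Cr2 are among the genes that stand in both a pathway list and the B cell markers.

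Other cell types that use members of this pathway also differed. Monocyte markers were lower in 8 of 9 (median -0.84), with sums of 4420, 4420 and 5610 in FR pools 1, 2 and 3, against 33400, 46500 and 32600 in control pools. Csf1r counted as lower by its brightest probe, at -1.10, while its other probes, at 0.15 and -0.07, did not pass. Platelet markers were lower in 9 of 11 (median -1.05), with sums of 41900, 44600 and 44800 in FR pools, against 97700, 102000 and 108000 in control pools. NK cell markers were lower in 5 of 5 (median -1.19), with sums of 395, 549 and 522 in FR pools, against 1110, 1430 and 1100 in control pools. The filter was met in FR by 3 of 9 monocyte, 11 of 11 platelet and 1 of 5 NK cell markers. The other monocyte and NK cell markers met it through the control channel alone, so their counts carry the same limit. The sums of monocyte, platelet and NK cell markers were lower in every FR pool than in any control pool. Lyz2, the brightest monocyte marker, had ratios of -3.23 by its brighter probe and -2.003 by the other. It had control log2 signals of 14.83, 15.28 and 14.81 in pools 1, 2 and 3 by the brighter probe. It dominates the monocyte sums, so sums of this kind are not cell type levels. Neutrophil markers were lower in 3 and higher in 1 of 8 (median -0.21), with sums of 8020, 9880 and 10700 in FR pools, against 14300, 22000 and 11500 in control pools. T cell markers were lower in 1 of 7 (median -0.08), with sums of 3290, 2850 and 2900 in FR pools, against 3660, 3290 and 3510 in control pools. The lower one was Cd3d at -1.89, while Cd3g at -0.12 and Cd3e at -0.05 did not pass. Neutrophil sums were also lower in every FR pool than in any control pool, least so in pool 3, and the T cell sums of FR and control met at 3290. Plasma cell markers were lower in 0 of 2 (median -0.08), with sums of 751, 687 and 636 in FR pools, against 818, 782 and 685 in control pools. Erythroid markers, which whole blood should carry, were above background in FR for all 8 tested genes. They were lower in 1 and higher in 1 of 8 (median 0.05), with sums of 439000, 387000 and 431000 in FR pools, against 426000, 437000 and 376000 in control pools. The part of each cell type in the ratios of Lyn, Syk, Btk and Plcg2 was not tested.

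**Figure D5:**
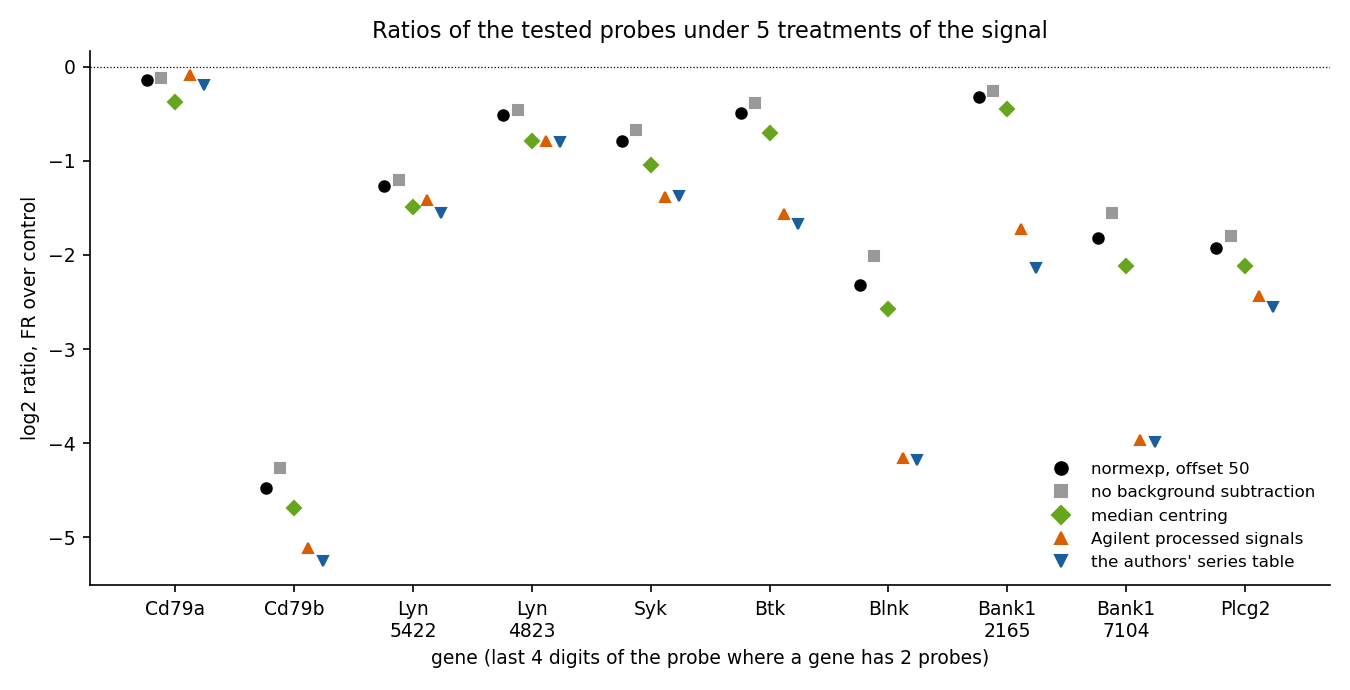
Log2 ratio of FR over control (mean of pools 2 and 3, vertical axis) for the 10 tested probes (horizontal axis) under 5 treatments of the signal, marked by colour and shape. All 5 treatments put each probe below 0. The processed signals and the authors' series table give Blnk and the brighter Bank1 probe much larger decreases than the -2.32 and -1.82 obtained with normexp at an offset of 50, while Lyn by its brighter probe moves little.

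The treatment of background mattered most for dim FR spots. Processed signals gave log2 ratios of -5.11 ± 0.02 for Cd79b, -4.15 ± 0.04 for Blnk, -3.97 ± 0.17 for the brighter Bank1 probe, -2.44 ± 0.33 for Plcg2, -1.57 ± 0.51 for Btk, -1.42 ± 0.16 for the brighter Lyn probe, -1.39 ± 0.13 for Syk, -0.79 ± 0.16 for the dimmer Lyn probe and -0.09 ± 0.10 for Cd79a (SD, n = 2 pools). For Blnk, Bank1, Btk and Syk the size of the decrease therefore depends on how background was removed, while the direction did not. Centring on the median in place of loess moved the median of all tested probes to -0.20 and that of the 8 genes to -1.80. Again 7 were lower, against 37.8% of all tested probes. Without any background subtraction the median of the 8 genes was -1.38.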

How the data were processed

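RNA of FR and control blood pools was hybridised to 6 Agilent 2-colour arrays. Spot intensity values on a linear scale were deposited in the scanner files, and the submitters' processing notes name Agilent Feature Extraction 11.0.1.1. A table of log10 values, also deposited, equalled the scanner's red over green log ratio within 1e-04 for 69.7% to 80.9% of spots per array, so it was used only as an alternative, turned to FR over control. Its column medians, in log10 units, were -0.00938, 0.0441 and 0.052 for pools 1, 2 and 3 with FR in Cy5, and -0.0277, 0.00763 and -0.0221 with FR in Cy3; its columns were neither centred nor turned for the dye.

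Median signals were corrected with normexp (offset 50) and a loess curve, fitted without weight on control spots, was removed from each array. Control and outlier-marked spots were left out, spots of a probe averaged, ratios turned to FR over control and the 2 arrays of a pool averaged. The ratios of pools 2 and 3 were then compared with 0 in limma 3.58.1 (R 4.3.3), by lmFit and eBayes with a trended prior, two-sided, and p-values were adjusted by Benjamini-Hochberg across 13258 probes, with 0.05 as the threshold. The test was also run on simulated ratios with known changes, drawn with the spread that the fit itself gave. Such ratios cannot test whether that spread is right. Of log2 changes of 0.5, 52.9% were recovered, and of changes of 1, 99.8%, while 4.57% of calls were false. Log2 signals per channel came from loess and Aquantile normalization, and summed signals are on the linear scale. A bound sets dim signals at no less than the lowest signal above background. Names came from the RefSeq table of assembly GRCm38.p6 by accession, which named 23374 probes, and a gene was represented by its brightest tested probe.

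The members, lists and tests were chosen with earlier results of these data known. Every member probe is given. From each pathway list the rule named up to 5 genes with the largest change among those that passed, and the genes a small count turns on; probes of one gene that disagreed, FR-dim genes, some markers and the probe pairs compared within arrays were chosen after their values were seen. Some genes the rule took are not reported here. Counts were recomputed under 17 alternatives and single probes under 15 to 17, as far as they passed the filter.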

Additional observations from a re-analysis of the deposited data

Results flagged for a closer look

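A single probe among the 36 member and named pathway probes had an array far from the others. Rasgrp1 (probe A_52_P487303), a Ras exchange factor, had a log2 ratio of FR over control of -0.1984 on the pool 3 array with FR in Cy3, while its other 5 arrays lay between -1.02 and -0.77. The gap divided by the range was 0.698, above Dixon's critical value for 6 arrays. Chance marks about 1 in 20 such sets. That array also had the lowest share of FR spots above background, 20.4%, and 6 of the 10 tested member probes had their ratio nearest to 0 on it, as did 28.1% of all tested probes.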

How the results depend on the processing

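Each count was recomputed under 17 alternatives, 16 planned and 1 chosen after seeing the data, and each member probe under the 15 to 17 that gave it a value; its direction was kept in each of those. The count of lower receptor genes, 7 of 8, stayed between 5 and 8, except that 3 of 4 passed when both diets had to be above background. The share of all tested probes called lower, 25.5% in the main fit, ran from 9.99% to 37.9% over the same alternatives. With pool 1 in the place of pool 2 and pool 3 the receptor count was 7 and 8, beside shares of 22.1% and 37.9%. The call of a member probe was lost 11 times, 6 for the dimmer Bank1 probe, 2 for Btk, 2 for the dimmer Lyn probe and 1 for Syk, and was gained 1 time, for Cd79a. The pathway lists, with 37 of 62 lower, gave 13 of 28 with both diets above background, 21 without the replicate block and 35 to 47 with pool 1 in the place of pool 2 or pool 3. Over all tested probes 3907 changed, against 2054 with both diets above background, 2385 with the prior taken from 3 pools, 1504 without the replicate block and 3529 to 7020 with pool 1 in the place of pool 2 or pool 3; the share of lower among these calls was 86.4%, and 95.5% of 5252 with median centring (234 higher, against 531), 74.4% with both diets above background, 71.6% with pool 1 in the place of pool 3 and 76.4% with FR in Cy5 only. FR and control share an array, so the block comes from the array and not from shared animals. By construction the offset of 50 pulls ratios of dim spots toward 0. In the fit of pools 2 and 3 the prior degrees of freedom were infinite, so its p-values assume a spread common to probes of like signal.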
